A study of Mus musculus with 4 samples.

Results

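Prostaglandins are lipid signals that cells make on demand, and the 10 genes described here encode enzymes that make or degrade them and receptors that sense them: *Ptgs1*, *Ptgs2*, *Ptges*, *Ptgis*, *Ptgds*, *Hpgds*, *Hpgd*, *Ptger2*, *Ptger3* and *Ptger4*. They were chosen by gene symbol, 10 of the 32285 genes in the deposited matrices, and each symbol matched 1 row. Their transcripts were counted in single cells of the tibial muscle of *Nse-Bmp4* mice, which carry *Bmp4* under the neuron specific enolase promoter on a C57BL/6 background and form bone in soft tissue (heterotopic ossification) after muscle injury with cardiotoxin. The study set uninjured muscle against injured muscle taken 1, 3 or 7 days later (days post injury, dpi), to follow how an inflamed niche acts on mesenchymal cells before ectopic bone appears. Each of the 4 libraries (Uninjured, 1 dpi, 3 dpi and 7 dpi) pooled 3 tibial muscles of mice aged 6 to 8 weeks, dissociated with collagenase. All 4 libraries came from transgenic mice, so no library here shows muscle without the transgene.

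In prostaglandin synthesis, a phospholipase first frees arachidonic acid from membranes. The cyclooxygenases *Ptgs1* and *Ptgs2* then turn it into the shared precursor prostaglandin H2, and terminal synthases turn that precursor into the signal: *Ptges* makes prostaglandin E2, *Ptgis* makes prostacyclin, and *Ptgds* and *Hpgds* make prostaglandin D2. *Hpgd* encodes the dehydrogenase that inactivates prostaglandins, and *Ptger2*, *Ptger3* and *Ptger4* encode receptors for prostaglandin E2. *Ptgs2* is known as an inducible gene in fibroblasts, macrophages and neutrophils, and prostaglandin E2 as a signal in both muscle regeneration and ectopic bone formation.

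With 1 library per time point there was no replicate, so no test was made and no p-value is given. Each value is the sum of unique molecular identifiers (UMIs, 1 per captured transcript) over the cells of a class, given per 1000000 UMIs of that class (CPM) with an exact Poisson 95% interval, and ratios carry a conditional binomial 95% interval. These intervals cover counting error only and not the spread between mice, and a ratio of at least 2 or at most 0.5 is used as a rule of size among genes with at least 20 UMIs over the pair compared. A lower CPM of a class cannot be told apart from a smaller share of cells that express the gene. After quality filters 52853 of 62665 barcodes were kept, with 91146335 to 129007669 UMIs deposited per library and a median per kept cell of 8638 in Uninjured, 5896 at 1 dpi, 4338 at 3 dpi and 3049 at 7 dpi. Cells were assigned to classes by markers that include none of the 10 genes, which gave 3761 to 10961 mesenchymal cells, 299 to 1628 monocytes and macrophages and 50 to 484 neutrophils per library, and 4032 chondrocytes, all at 7 dpi. Pooled over libraries, the median marker of a class was detected in 86.8% of mesenchymal cells against 7.37% of other cells, in 90.9% against 11.2% for chondrocytes, in 71.6% against 1.79% for monocytes and macrophages and in 79.0% against 0.611% for neutrophils. However, *Ly6g* was found in 11.6% of neutrophils at 7 dpi, the library where it was lowest. At 7 dpi the mesenchymal markers were also common outside the class: *Pdgfra* was found in 33.8% of mesenchymal cells and 14.5% of other cells and *Col5a1* in 93.2% and 65.6%. The other cells here included the 4032 chondrocytes, a class of the same lineage, and left out cells of mixed or no class. Transcripts of lysed cells reach every droplet. This was gauged in T, NK and B cells by *Col1a1*, *Col1a2*, *Col3a1*, *Dcn*, *Lum*, *Mfap5* and *Gsn*. These cells held 0.763% to 4.40% of the mesenchymal CPM of those genes up to 3 dpi and 2.16% to 8.42% at 7 dpi. The top of both ranges was *Gsn*, which is not a matrix gene, in B cells. Between 30 and 95 barcodes were shared by any pair of libraries.

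The genes fell into groups by where their transcripts were found, as the heat map of the 10 genes shows. *Ptges* and *Ptgis* were mostly mesenchymal by count of UMIs, with 92.2% of 15012 UMIs and 87.5% of 20335 UMIs in that class. *Ptgs2* (59207 UMIs), *Hpgd* (8575 UMIs) and *Ptgs1* (5462 UMIs) had 78.1%, 77.3% and 70.7% of their UMIs in mesenchymal cells. The next class was monocytes and macrophages for *Ptgs2* (5.68%), chondrocytes for *Hpgd* (10.7%) and granulocyte progenitors for *Ptgs1* (9.26%). *Ptger4* was shared between mesenchymal cells, with 31.4% of 10650 UMIs, and monocytes and macrophages, with 25.0%. For *Hpgds* and *Ptger2* monocytes and macrophages were the leading class, with 53.1% of 1007 UMIs and 40.5% of 612. *Ptger3* (515 UMIs) and *Ptgds* (216 UMIs) were rare in all 4 libraries. These shares follow the number of cells captured per class, and mesenchymal cells were the largest class in each library.

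**Figure D1:**
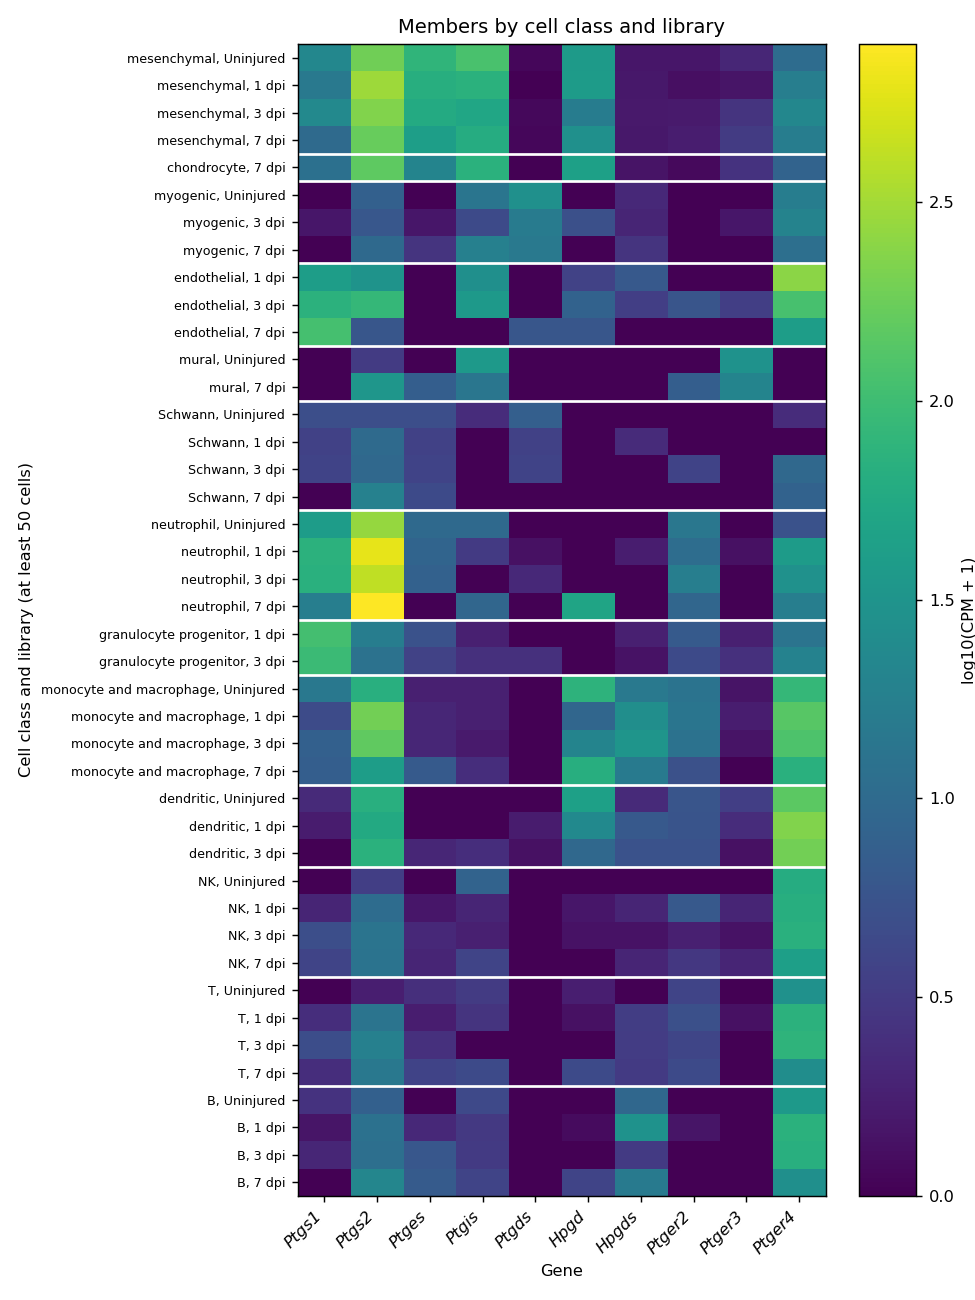
Level of the 10 genes, as log10(CPM + 1), in each cell class and library with at least 50 cells; each row is the sum over the cells of 1 class in 1 library and each column is a gene. *Ptges* and *Ptgis* are brighter in the mesenchymal and chondrocyte rows than in the blood cell rows, *Ptger4* is bright in the dendritic, monocyte and macrophage, T, NK and B rows and darker in the neutrophil and granulocyte progenitor rows, and *Ptgs2* is bright in the mesenchymal, chondrocyte, neutrophil, monocyte and macrophage rows.

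The promoters of the genes on which the results below turn are shown for reference, since *Ptgs2* is the inducible cyclooxygenase, *Ptgs1* its constitutive partner and *Hpgd* the gene with the widest swing in macrophages. Each sequence runs 5′ to 3′ on the gene's strand from 250 bases before to 50 bases after the transcription start in RefSeq (GRCm38.p6), and 9 of the 10 genes had an entry (*Ptgis* had none). Capitals mark matches to 6 motifs searched on both strands, TTGCGCAA (a C/EBP palindrome), TGACGT (the core of a CRE), CACGTG (an E-box), an NF-kB type string (GGGA and CC with any 4 bases between), TATAAA and GCGNGGGCG (Egr1 type).
Ptgs1, chr2:36230176-36230475, plus strand: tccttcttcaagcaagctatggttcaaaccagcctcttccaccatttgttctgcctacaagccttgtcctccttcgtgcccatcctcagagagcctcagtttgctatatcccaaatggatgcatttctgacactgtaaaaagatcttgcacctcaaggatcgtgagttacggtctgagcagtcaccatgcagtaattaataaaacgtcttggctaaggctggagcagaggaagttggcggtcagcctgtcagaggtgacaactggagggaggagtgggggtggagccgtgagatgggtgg
Ptgs2, chr1:150099781-150100080, plus strand: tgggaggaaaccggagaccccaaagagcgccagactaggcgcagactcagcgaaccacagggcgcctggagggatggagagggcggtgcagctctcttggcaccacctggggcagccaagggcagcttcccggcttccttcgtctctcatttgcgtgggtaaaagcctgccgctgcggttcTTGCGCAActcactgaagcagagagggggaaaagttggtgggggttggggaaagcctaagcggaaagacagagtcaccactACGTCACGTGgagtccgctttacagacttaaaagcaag
Hpgd, chr8:56294302-56294601, plus strand: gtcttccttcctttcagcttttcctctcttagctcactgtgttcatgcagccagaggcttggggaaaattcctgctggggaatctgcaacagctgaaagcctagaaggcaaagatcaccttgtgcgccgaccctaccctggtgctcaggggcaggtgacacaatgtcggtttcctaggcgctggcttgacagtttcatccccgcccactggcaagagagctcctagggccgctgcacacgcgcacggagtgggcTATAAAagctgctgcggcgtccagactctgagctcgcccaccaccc

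The *Ptgs2* window held TTGCGCAA from 69 to 62 bases before the start, a letter string found in 0.183% of 32851 promoters of the same length (60 promoters). It also held the CRE core on the minus strand at bases 13 to 18 after the start, which shares 2 bases with an E-box at bases 17 to 22; 7.51% and 7.15% of promoters hold these. The *Ptgs1* window held none of the 6 motifs, and the *Hpgd* window held TATAAA at bases 5 to 10 after the RefSeq start, as 13.6% of promoters do. That start lies upstream of the *Hpgd* gene start in the coordinates given below (chr8:56294585), and the TATAAA lies before that gene start too. Of the other 6 windows, the *Ptger3* window had the NF-kB type string, found in 20.7% of promoters, and the remaining 5 had no match. The Egr1 type string was in 5.55% of promoters and in none of the 9. A match is a description of letters and does not show that a factor was bound.

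*Ptgs2* (chr1:150100031-150108227, GRCm38) was highest at 1 dpi in mesenchymal cells. Its level was 183 CPM in Uninjured (180 to 186, 14343 UMIs), 294 at 1 dpi (289 to 300, 10190 UMIs), 222 at 3 dpi (218 to 226, 12156 UMIs) and 166 at 7 dpi (163 to 169, 9557 UMIs). The 4 intervals did not overlap, and the level at 1 dpi was 1.61-fold that of Uninjured (1.57 to 1.65), which did not reach the rule of size. Scaled by the median ratio over all genes instead of by total UMIs, the same difference was 0.48 on the log2 scale in place of 0.69, because that scaling shifts the mesenchymal sums by -0.11 in Uninjured and 0.10 at 1 dpi. With each cell thinned to 1000 UMIs, 12.8%, 17.7%, 16.6% and 13.5% of mesenchymal cells had a *Ptgs2* UMI in Uninjured and at 1, 3 and 7 dpi (39.9%, 46.6%, 46.0% and 33.6% without thinning), against 0.283%, 1.51%, 1.41% and 1.53% of T cells, which should lack the transcript. The signal was uneven between cells: the tenth of mesenchymal cells with most *Ptgs2* held 64.7% of its UMIs at 1 dpi, and 1 cell held 115. Within the gate of mesenchymal cells with *Smoc2* and *Col15a1* described below, the step from Uninjured to 1 dpi did pass the rule of size. The part of a changed mix of cells in the class level was not tested.

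*Ptgs2* is also an immediate early gene, so the summed level of 9 immediate early genes is given beside it. In mesenchymal cells that sum was 28480 CPM in Uninjured, 18352 at 1 dpi, 10372 at 3 dpi and 8954 at 7 dpi. The sum was highest in Uninjured, unlike *Ptgs2*, and from 1 to 7 dpi both fell at each step. The part of these genes in the *Ptgs2* levels was not tested. A list of 9 inflammatory inducers and targets, with *Il1b*, *Tnf*, *Il6* and chemokines, had 5 of 9 genes higher and none lower by the rule of size in mesenchymal cells at 1 dpi over Uninjured, where 15.5% of all genes tested passed it, with a median log2 ratio of 1.28 against 0.17 over all genes. The summed level of the list was 2206 CPM in Uninjured and 2176 CPM at 1 dpi. *Il6*, a cytokine of injured stroma, was found in 15.8% of mesenchymal cells with a *Ptgs2* UMI at 1 dpi and in 7.45% of those without one, both at 1000 UMIs per cell. The same pair of shares was 7.68% and 3.92% in Uninjured, 23.2% and 13.4% at 3 dpi, and 5.50% and 3.75% at 7 dpi. *Ptgs2* and *Ptges*, which act in sequence, showed no such pattern in Uninjured and at 1 dpi, the libraries given here. *Ptges* was found in 5.24% of mesenchymal cells with *Ptgs2* and 8.27% of those without it in Uninjured, and in 5.88% and 5.25% at 1 dpi.

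Monocytes and macrophages had their highest *Ptgs2* level at 1 dpi as well, with a wider swing. The level was 66.5 CPM in Uninjured (56.8 to 77.5, 165 UMIs), 190 at 1 dpi (183 to 198, 2396 UMIs), 153 at 3 dpi (142 to 164, 747 UMIs) and 39.8 at 7 dpi (30.04 to 51.6, 56 UMIs). It was 2.86-fold higher at 1 dpi than in Uninjured (2.44 to 3.37) and 3.85-fold lower at 7 dpi than at 3 dpi (2.93 to 5.14). The immediate early sum in this class was 29506 CPM in Uninjured, 22881 at 1 dpi, 20771 at 3 dpi and 22559 at 7 dpi, and its part in the *Ptgs2* levels was not tested. The class was divided by the complement genes *C1qa*, *C1qb* and *C1qc*, which mark maturing and resident macrophages. Cells with at least 2 of the 3 had 101, 126, 112 and 38.6 CPM of *Ptgs2* in the 4 libraries in time order, and the other cells had 54.1, 243, 195 and 40.2 CPM. Thus *Ptgs2* was 1.87-fold higher in C1q cells in Uninjured (1.35 to 2.59), 1.93-fold lower at 1 dpi (1.77 to 2.12), 1.74-fold lower at 3 dpi (1.499 to 2.03) and at a ratio of 0.959 at 7 dpi (0.493 to 1.77). In this class, too, cells with *Ptgs2* more often had an inflammatory transcript: *Il1b* was found in 58.6% of monocytes and macrophages with *Ptgs2* and in 40.1% of the others at 1 dpi, and in 80.7% and 50.4% at 3 dpi.

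Neutrophils had a higher *Ptgs2* level than mesenchymal cells in all 4 libraries. It was 275 CPM in Uninjured (211 to 352, 63 UMIs), 623 at 1 dpi (595 to 653, 1789 UMIs), 417 at 3 dpi (375 to 463, 358 UMIs) and 788 at 7 dpi (639 to 962, 97 UMIs), which is 1.504-fold (1.16 to 1.93), 2.12-fold (2.01 to 2.23), 1.88-fold (1.69 to 2.09) and 4.75-fold (3.85 to 5.80) the mesenchymal level. The neutrophil class was small in Uninjured (50 cells) and at 7 dpi (86 cells). At 7 dpi its median depth was 1236.5 UMIs per cell, against 3052 in Uninjured. *Ly6g* was found in 11.6% of the class at 7 dpi, against 58%, 57.0% and 46.3% in Uninjured and at 1 and 3 dpi. *Cxcr2*, *Mmp9*, *Retnlg* and *Trem1*, other markers of the class, were also lowest at 7 dpi, at 67.4%, 67.4%, 72.1% and 60.5%. Only *Csf3r* was highest there, at 94.2%. *Hpgd* was at 48.8 CPM in this class at 7 dpi (6 UMIs) and at 0 CPM in Uninjured and at 1 and 3 dpi. Among neutrophils at 1 dpi, 94.97% of those with a *Ptgs2* UMI also had *Il1b*, against 37.9% of those without, at 1000 UMIs per cell. Granulocyte progenitors, which carry *Mpo*, *Elane* and *Prtn3* and were numerous at 1 and 3 dpi (124 and 218 cells), had little *Ptgs2*: 15.9 CPM at 1 dpi (40 UMIs) and 11.2 CPM at 3 dpi (29 UMIs), 39.2-fold (28.7 to 55.0) and 37.2-fold (25.4 to 56.3) below neutrophils of the same library. At 1 dpi the levels of 7 classes ran from neutrophils through mesenchymal cells and monocytes and macrophages to dendritic cells (57.1 CPM, 45.6 to 70.6), endothelial cells (29.6 CPM, 14.8 to 52.9), granulocyte progenitors and T cells (12.0 CPM, 8.36 to 16.7). In that order endothelial cells overlapped with both dendritic cells and granulocyte progenitors in their intervals, as progenitors did with T cells.

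**Figure D2:**
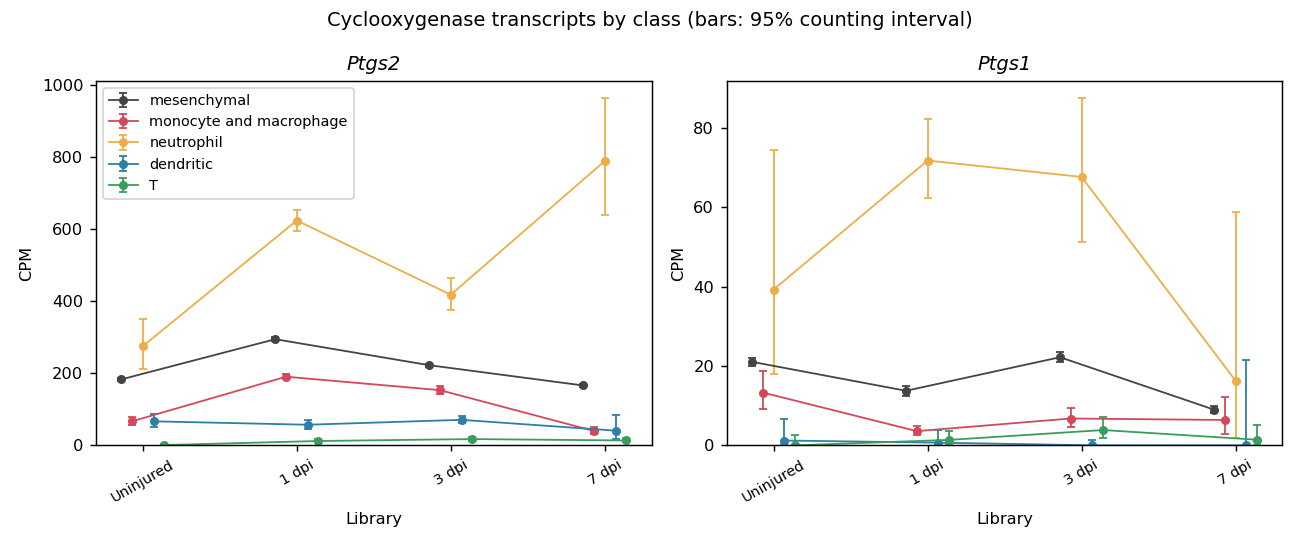
Level of *Ptgs2* (left) and *Ptgs1* (right) in CPM against library for mesenchymal cells, monocytes and macrophages, neutrophils, dendritic cells and T cells; points are class sums of 1 library and bars are 95% counting intervals. *Ptgs2* is highest in neutrophils in each library and peaks at 1 dpi in mesenchymal cells (294 CPM) and in monocytes and macrophages (190 CPM), while *Ptgs1* is highest in neutrophils at 1 dpi (71.8 CPM).

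*Ptgs1* (chr2:36230426-36252272), the cyclooxygenase that most tissues express at rest, did not share this course. Its mesenchymal level was 21.0 CPM in Uninjured (20.04 to 22.1, 1652 UMIs), 13.7 at 1 dpi (12.5 to 15.0, 476 UMIs), 22.2 at 3 dpi (21.0 to 23.5, 1215 UMIs) and 8.99 at 7 dpi (8.24 to 9.80, 518 UMIs). It was thus lower at 1 dpi, where *Ptgs2* was higher, and 2.47-fold lower at 7 dpi than at 3 dpi (2.23 to 2.74). Among granulocytes the order of *Ptgs1* was the reverse of that of *Ptgs2*. Granulocyte progenitors had 106 CPM at 1 dpi (93.5 to 119, 266 UMIs) and 92.2 at 3 dpi (80.9 to 105, 238 UMIs), 1.47-fold (1.22 to 1.78) and 1.36-fold (1.02 to 1.85) above neutrophils. Of the 10 genes, 5 could be compared between these 2 classes at 1 dpi and 4 at 3 dpi, and 2 were past the rule of size each time, *Ptgs2* with *Ptger4* at 1 dpi and with *Ptger2* at 3 dpi; 50.7% and 53.1% of all genes tested were past it too. Endothelial cells, known for constitutive *Ptgs1*, had 111 CPM in Uninjured (13 UMIs), 40.3 at 1 dpi (15 UMIs), 72.4 at 3 dpi (30 UMIs) and 111 at 7 dpi (22 UMIs), from 22 to 129 cells, so that most of their intervals overlapped. Monocytes and macrophages had 13.3, 3.57, 6.76 and 6.39 CPM in time order, and the difference of the first 2 (log2 ratio -1.90) was -0.64 when cells were thinned to 1000 UMIs. The mesenchymal difference of 7 and 3 dpi was a log2 ratio of -0.97, under 2-fold, with every barcode kept. It was also under 2-fold within the *Pi16* and *Dpp4* gate and within the *Smoc2* and *Col15a1* gate described below. The part of a changed mix of cells was not tested.

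Summed over all mesenchymal cells, the terminal synthases *Ptges* and *Ptgis* were lower in each injured library than in Uninjured. This did not hold in every gate of mesenchymal cells described below, and the part of a changed mix of cells was not tested. *Ptges* (chr2:30889471-30929863), which is often coupled to *Ptgs2*, was at 77.0 CPM in mesenchymal cells of Uninjured (75.0 to 78.9, 6043 UMIs), 64.3 at 1 dpi (61.7 to 67.0, 2227 UMIs), 58.3 at 3 dpi (56.3 to 60.4, 3191 UMIs) and 41.3 at 7 dpi (39.7 to 43.0, 2381 UMIs). Each library was below the one before it, and 7 dpi was 1.86-fold below Uninjured (1.78 to 1.95). *Ptgis* (chr2:167191805-167240604) was at 116 CPM in Uninjured (113 to 118, 9072 UMIs), 69.5 at 1 dpi (66.8 to 72.3, 2407 UMIs), 50.4 at 3 dpi (48.5 to 52.3, 2758 UMIs) and 61.7 at 7 dpi (59.6 to 63.7, 3551 UMIs), and its level at 3 dpi was 2.29-fold below Uninjured (2.20 to 2.39). Both synthases were low in monocytes and macrophages, which had 0.807 to 5.68 CPM of *Ptges* and 0.614 to 1.42 CPM of *Ptgis*, from at most 13 UMIs per library. For comparison, the T, NK and B cells of a library held a median of 1.77% (up to 3 dpi) and 6.83% (7 dpi) of the mesenchymal *Ptges* level. Outside the mesenchymal lineage, *Ptges* reached 74.7 CPM (38.6 to 130, 12 UMIs) in 27 keratinocytes of the 3 dpi library. Endothelial cells had 42.8, 26.9, 36.2 and 0 CPM of *Ptgis* in time order, on few UMIs from 22, 69, 129 and 51 cells. Mural cells had 12.8 to 35.2 CPM of *Ptgis* in the 2 libraries with at least 50 of them.

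Up to 3 dpi, *Ptgis* was higher in mesenchymal cells with the tendon genes *Tnmd* and *Thbs4* than in mesenchymal cells as a whole. Their level was 503 CPM in Uninjured (469 to 539, 149 cells), 287 at 1 dpi (239 to 342, 58 cells), 231 at 3 dpi (208 to 255, 150 cells) and 71.3 at 7 dpi (66.3 to 76.5, 1643 cells). Over all mesenchymal cells of the same library, of which they are a part, this was 4.35-fold (4.04 to 4.68), 4.13-fold (3.43 to 4.94), 4.58-fold (4.11 to 5.09) and 1.16-fold (1.07 to 1.25). The gate held 1643 cells at 7 dpi against at most 150 before, and whether they are the same kind of cell was not tested.

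The prostaglandin D2 synthases had separate homes. *Hpgds* (chr6:65117293-65144908), the haematopoietic enzyme, was at 13.7 CPM in monocytes and macrophages of Uninjured (34 UMIs), 26.0 at 1 dpi (328 UMIs), 31.3 at 3 dpi (153 UMIs) and 14.2 at 7 dpi (20 UMIs). Most of it lay in C1q macrophages, at 40.0, 37.7, 49.98 and 48.9 CPM in time order against 4.37, 16.6, 12.1 and 0.981 CPM in the other cells of the class. The level in C1q macrophages thus stayed within overlapping intervals in all 4 libraries (26.1 to 58.6, 32.8 to 43.1, 41.6 to 59.6 and 29.4 to 76.3), and the ratio to the other cells was 9.14 in Uninjured (4.02 to 23.4), 2.27 at 1 dpi (1.80 to 2.88) and 4.14 at 3 dpi (2.74 to 6.43). Mast cells, which are known for *Hpgds*, gave 11, 9 and 6 UMIs from 22, 42 and 11 cells at 1, 3 and 7 dpi. These were out of 102328, 91976 and 15795 UMIs of the class. Per UMI this level was above that of C1q macrophages in each of these libraries, but it rests on few UMIs. B cells had 28.9 CPM at 1 dpi (24.1 to 34.4, 127 UMIs) but 8.36, 2.08 and 14.7 CPM, from at most 5 UMIs, in the other libraries. *Ptgds* (chr2:25466709-25470046), the lipocalin type enzyme, had 44.4% of its 216 UMIs in cells with markers of more than 1 lineage and 29.2% in myogenic cells. The myogenic level was 27.1 CPM in Uninjured (17.4 to 40.4, 24 UMIs), 5.27 at 1 dpi (1 UMI), 15.1 at 3 dpi (30 UMIs) and 14.0 at 7 dpi (8 UMIs). Within them, cells with *Myog* and no *Pax7* had 58.3 CPM in Uninjured (20 UMIs), 38.8 at 3 dpi (15 UMIs) and 25.0 at 7 dpi (6 UMIs), and cells with *Pax7* and no *Myog* had 8.54, 4.98 and 4.85 CPM from at most 4 UMIs.

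*Hpgd* (chr8:56294585-56321043), which ends prostaglandin signals, had the widest swing of the 10 genes in monocytes and macrophages. Its level was 73.8 CPM in Uninjured (63.5 to 85.3, 183 UMIs), 8.10 at 1 dpi (6.60 to 9.83, 102 UMIs), 19.0 at 3 dpi (15.4 to 23.3, 93 UMIs) and 65.3 at 7 dpi (52.7 to 80.1, 92 UMIs). It was 9.11-fold lower at 1 dpi than in Uninjured (7.11 to 11.7), 2.35-fold higher at 3 dpi than at 1 dpi (1.76 to 3.15) and 3.43-fold higher at 7 dpi than at 3 dpi (2.54 to 4.63), by when its ratio to Uninjured was 0.885 (0.681 to 1.14). At 1000 UMIs per cell, 7.69% of these cells had an *Hpgd* UMI in Uninjured (4.94% to 11.3%), 0.923% at 1 dpi (0.517% to 1.52%), 1.90% at 3 dpi (1.13% to 2.99%) and 6.21% at 7 dpi (3.78% to 9.53%). Without thinning the shares were 27.8%, 4.24%, 6.24% and 16.7%. No thinned T cell had one before 7 dpi, which allows shares of up to 1.04%, 0.557% and 0.398% in the 3 libraries (exact upper limits), and 0.339% had one at 7 dpi. C1q macrophages and the other cells of the class went through the same course, with 81.5, 5.48, 19.3 and 51.4 CPM in the former and 71.1, 10.2, 18.7 and 70.6 CPM in the latter. Dendritic cells had 43.6 CPM in Uninjured (36 UMIs), 22.8 at 1 dpi (34 UMIs) and 8.53 at 3 dpi (25 UMIs), and so were lowest at 3 dpi, not at 1 dpi. *Hpgd* and *Ptgs2* therefore ran opposite ways in monocytes and macrophages at each step from Uninjured to 7 dpi. Between 1 and 3 dpi the difference of *Ptgs2* did not reach the rule of size.

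Mesenchymal cells did not follow the macrophage course of *Hpgd*. They had 36.7 CPM in Uninjured (35.4 to 38.1, 2881 UMIs), 38.2 at 1 dpi (36.1 to 40.3, 1322 UMIs), 15.4 at 3 dpi (14.4 to 16.5, 844 UMIs) and 27.4 at 7 dpi (26.1 to 28.8, 1579 UMIs). The level was unlike macrophages in being close to Uninjured at 1 dpi, with a ratio of 1.04 (0.974 to 1.11), and it was 2.48-fold lower at 3 dpi than at 1 dpi (2.27 to 2.70). That last step was under 2-fold when each cell had equal weight (log2 ratio -0.79) or was thinned to 1000 UMIs (-0.84), against -1.31 on summed UMIs. At 3 dpi *Hpgd* was lowest in mesenchymal cells with *Cxcl5* and *Prg4*, an injury state, at 4.88 CPM (3.95 to 5.98, 94 UMIs in 1143 cells), and in those with *Lrrc15* and *Tnn*, at 2.39 CPM (1.19 to 4.28, 11 UMIs in 213 cells). Cells with *C7* and *Gdf10* held 43.7 CPM at 3 dpi (36.0 to 52.5, 113 UMIs in 330 cells).

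**Figure D3:**
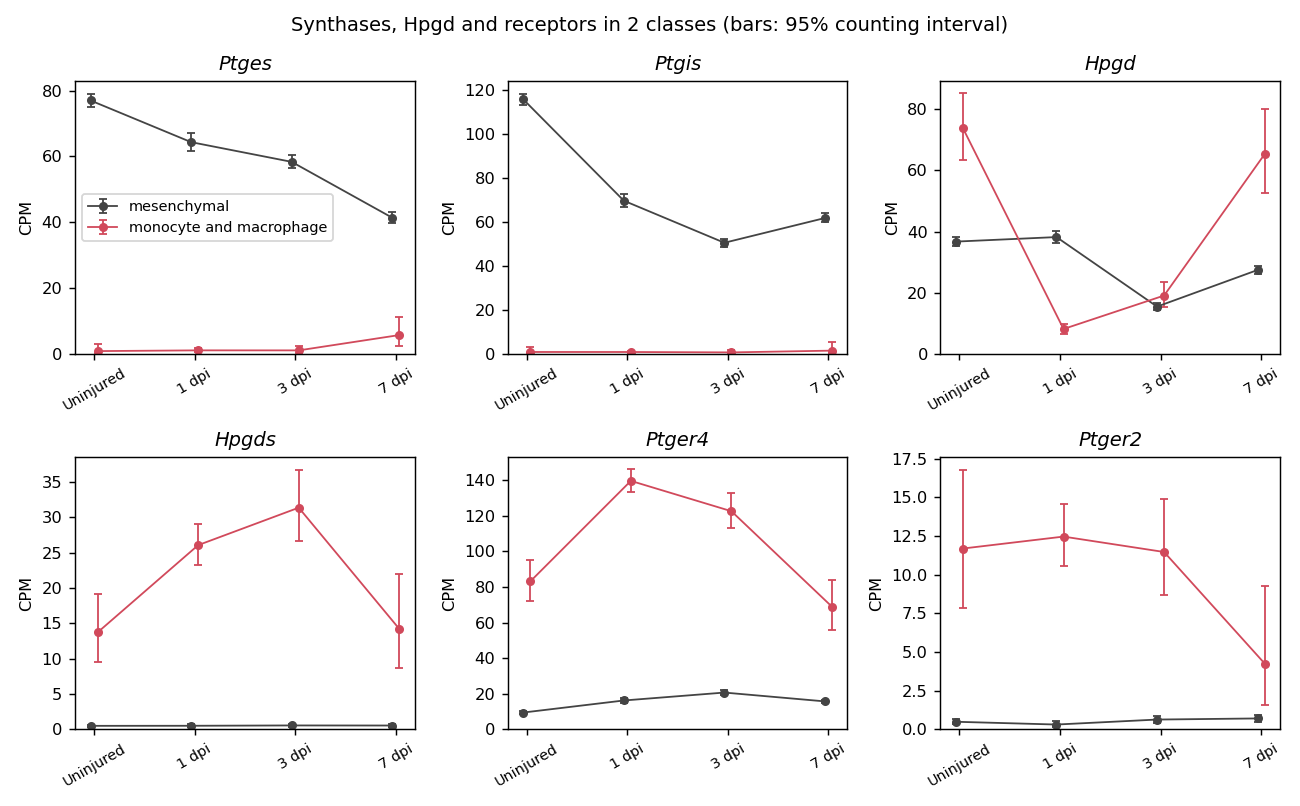
Level of *Ptges*, *Ptgis*, *Hpgd*, *Hpgds*, *Ptger4* and *Ptger2* in CPM against library for mesenchymal cells and for monocytes and macrophages; points are class sums of 1 library and bars are 95% counting intervals. *Ptges* and *Ptgis* are at 41.3 to 116 CPM in mesenchymal cells and at most 5.68 CPM in monocytes and macrophages, *Hpgd* in monocytes and macrophages is at 73.8 CPM in Uninjured, 8.10 at 1 dpi and 65.3 at 7 dpi, and *Ptger4*, *Hpgds* and *Ptger2* are higher in monocytes and macrophages.

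Of the prostaglandin E2 receptors, *Ptger4* (chr15:5206661-5244187), which couples to cyclic AMP, was found most broadly. In monocytes and macrophages it was at 83.1 CPM in Uninjured (72.1 to 95.2, 206 UMIs), 140 at 1 dpi (133 to 146, 1757 UMIs), 122 at 3 dpi (113 to 133, 598 UMIs) and 68.9 at 7 dpi (55.9 to 84.0, 97 UMIs), 1.68-fold higher at 1 dpi than in Uninjured (1.45 to 1.95). Dendritic cells had 145 CPM in Uninjured (120 to 174), 220 at 1 dpi (196 to 245) and 191 at 3 dpi (175 to 207). T cells had 27.9 CPM in Uninjured (19.7 to 38.2), 71.7 at 1 dpi (62.3 to 82.1), 75.1 at 3 dpi (64.9 to 86.4) and 25.4 at 7 dpi (17.8 to 35.2). B cells showed the same shape, at 35.1, 69.9, 66.4 and 26.4 CPM, while NK cells had 60.8, 65.3, 67.2 and 42.4 CPM with overlapping intervals up to 3 dpi. Mesenchymal cells were lower, at 9.49 CPM in Uninjured (8.82 to 10.2), 16.3 at 1 dpi (14.9 to 17.7), 20.7 at 3 dpi (19.5 to 21.9) and 15.7 at 7 dpi (14.7 to 16.8), and 3 dpi was 2.18-fold above Uninjured (1.99 to 2.40). The level at 1 or 3 dpi was thus above that of Uninjured, with no overlap of intervals, in each of these classes except NK cells. The *Ptger4* level also peaked at 1 dpi in small classes: endothelial cells had 34.2 CPM in Uninjured (4 UMIs), 247 at 1 dpi (199 to 303, 92 UMIs in 69 cells), 113 at 3 dpi (47 UMIs) and 40.3 at 7 dpi (8 UMIs), and myogenic cells had 15.8 CPM in Uninjured (14 UMIs) and 116 at 1 dpi (72.7 to 176, 22 UMIs in 44 cells). Cells with both *Ccr7* and *Ccl22*, genes of migratory dendritic cells, had 106, 393, 254 and 477 CPM in time order, from 7, 11, 58 and 10 cells. At 1 dpi endothelial and dendritic cells had overlapping intervals at the top of the classes of at least 50 cells, followed by monocytes and macrophages.

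*Ptger2* (chr14:44988195-45003820), which also couples to cyclic AMP, gave few UMIs, most of them in myeloid cells. Monocytes and macrophages had 11.7 CPM in Uninjured (29 UMIs), 12.5 at 1 dpi (157 UMIs), 11.5 at 3 dpi (56 UMIs) and 4.26 at 7 dpi (6 UMIs), with a ratio of 1.07 (0.714 to 1.64) at 1 dpi over Uninjured. Neutrophils had 13.1, 9.76, 16.3 and 8.13 CPM from 3, 28, 14 and 1 UMIs. Mesenchymal cells had 0.318 to 0.712 CPM, and the 2.01-fold difference there between 3 and 1 dpi (1.00 to 4.40) rests on 35 and 11 UMIs and turned sign, to a log2 ratio of -0.10, when cells were thinned to 1000 UMIs. *Ptger3* (chr3:157566892-157645888), which inhibits cyclic AMP, was at 28.6 CPM in mural cells of Uninjured (15.2 to 49.0, 13 UMIs in 57 cells). Mast cells held 5, 3 and 1 UMIs at 1, 3 and 7 dpi, out of 102328, 91976 and 15795 UMIs of the class. Per UMI this was a higher level than in those mural cells, but it rests on few UMIs. A further 7 UMIs came from 12 cells with the basophil genes *Mcpt8* and *Prss34* at 1 dpi, and 3 UMIs from 10 such cells at 3 dpi. In mesenchymal cells *Ptger3* was at 1.06 CPM in Uninjured (83 UMIs), 0.462 at 1 dpi (16 UMIs), 1.74 at 3 dpi (95 UMIs) and 2.15 at 7 dpi (124 UMIs), 2.29-fold lower at 1 dpi than in Uninjured (1.33 to 4.19; under 2-fold, at -0.76 on the log2 scale, when each cell had equal weight) and 3.76-fold higher at 3 dpi than at 1 dpi (2.20 to 6.84).

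Counted over the 10 genes, 9 could be compared in mesenchymal cells taken as a whole. Steps within gates of these cells differed for some members, such as *Ptgs2* and *Ptgs1*. At 1 dpi over Uninjured none was higher and 1 (*Ptger3*) was lower by the rule of size, where 15.5% of all genes tested passed it in either direction. At 3 dpi over 1 dpi, 2 were higher (*Ptger2* and *Ptger3*) and 1 lower (*Hpgd*), against 13.5% of all genes, and at 7 dpi over 3 dpi 1 was lower (*Ptgs1*), against 19.8%. The median log2 ratio of the members was -0.26, 0.12 and -0.03 at the 3 steps, and that of all genes tested 0.17, -0.08 and -0.05. In monocytes and macrophages 6 could be compared. At 1 dpi over Uninjured 1 was higher (*Ptgs2*) and 2 were lower (*Ptgs1* and *Hpgd*), against 23.9% of all genes; at 3 dpi over 1 dpi 1 was higher (*Hpgd*), against 12.7%; and at 7 dpi over 3 dpi 1 was higher (*Hpgd*) and 3 were lower (*Ptgs2*, *Hpgds* and *Ptger2*), against 12.8%. Their median log2 ratio at the last step was -0.99, beside -0.11 over all genes. In monocytes and macrophages the count past the rule of size was 3 of 6 at the first step and 4 of 6 at the last, on few genes. *Hpgds* at the last step was under 2-fold (log2 ratio -0.89 in place of -1.14) when cells with markers of more than 1 lineage were kept. Within C1q macrophages its level had overlapping intervals at 3 and 7 dpi, as given above. These cells were 490 of 978 in the class at 3 dpi and 80 of 312 at 7 dpi. The part of this mix was not tested. *Ptger2* at 7 dpi rests on 6 UMIs.

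Mesenchymal cells are not uniform, and several members differed between a pair of stromal gates in every library. The first gate took mesenchymal cells with *Pi16* and *Dpp4*, genes of adventitial fibroblast progenitors, and the second those with *Smoc2* and *Col15a1*, genes of interstitial fibroblasts; cells that passed both gates (103 to 686 per library) were left out. The *Pi16* and *Dpp4* gate held 2621, 852, 870 and 342 cells in time order and the *Smoc2* and *Col15a1* gate 4230, 1940, 2347 and 1564. Each gene of a pair needed at least 1 UMI, so both gates depend on depth. Median UMIs per cell were 9783 in Uninjured and 6967.5 at 7 dpi in the former, and 8777.5 and 4881 in the latter. The part of depth and of free transcripts in the differences between libraries was not tested.

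*Ptgs1* marked the *Pi16* and *Dpp4* gate most sharply. It was at 53.9 CPM in Uninjured, 37.3 at 1 dpi, 70.8 at 3 dpi and 44.3 at 7 dpi there, and at 2.63, 3.60, 8.73 and 4.56 CPM in the *Smoc2* and *Col15a1* gate. The ratio was 20.5 in Uninjured (16.7 to 25.4), 10.4 at 1 dpi (7.91 to 13.8), 8.10 at 3 dpi (6.80 to 9.69) and 9.72 at 7 dpi (6.90 to 13.9). At 1000 UMIs per cell, 5.46% and 0.165% of cells of the 2 gates had a *Ptgs1* UMI in Uninjured (29.5% and 1.99% without thinning). *Ptgs2* was on the same side, at 331, 514, 388 and 197 CPM against 88.8, 196, 170 and 106 CPM. From Uninjured to 1 dpi it passed the rule of size in the *Smoc2* and *Col15a1* gate and not in the other. The ratio of *Ptgs2* between the gates went from 3.72 in Uninjured (3.58 to 3.87) to 2.62 at 1 dpi (2.50 to 2.74), 2.29 at 3 dpi (2.18 to 2.41) and 1.86 at 7 dpi (1.68 to 2.06). *Ptgis* had 173, 110, 107 and 175 CPM against 66.9, 29.8, 25.1 and 40.6 CPM, with ratios of 2.58 (2.46 to 2.71), 3.69 (3.31 to 4.11), 4.25 (3.79 to 4.77) and 4.32 (3.79 to 4.93). The level of *Ptgis* in the *Pi16* and *Dpp4* gate was back at 175 CPM at 7 dpi (161 to 191), beside 173 in Uninjured (168 to 178), while in the other gate it was at 40.6 CPM (36.7 to 44.7) beside 66.9 (64.4 to 69.6).

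The other members were on the *Smoc2* and *Col15a1* side or moved between the sides. *Ptger4* was at 1.31, 3.51, 6.46 and 7.61 CPM in the *Pi16* and *Dpp4* gate and at 16.6, 24.8, 27.6 and 22.6 CPM in the *Smoc2* and *Col15a1* gate, lower in the former by 12.7-fold (8.96 to 18.4), 7.05-fold (4.87 to 10.6), 4.27-fold (3.16 to 5.90) and 2.97-fold (1.93 to 4.78). *Ptges* was 3.03-fold lower in the *Pi16* and *Dpp4* gate in Uninjured (2.82 to 3.25), 1.97-fold at 1 dpi (1.76 to 2.22), 1.55-fold at 3 dpi (1.38 to 1.75) and at a ratio of 1.04 at 7 dpi (0.874 to 1.23). The gap closed from both sides: *Ptges* went from 36.4 to 58.9 CPM in the former gate and from 110 to 56.6 CPM in the latter between Uninjured and 7 dpi. *Hpgd* was 1.85-fold lower in the *Pi16* and *Dpp4* gate in Uninjured (1.69 to 2.03), 3.70-fold lower at 1 dpi (3.08 to 4.49), 1.38-fold at 3 dpi (1.12 to 1.70) and at a ratio of 0.947 at 7 dpi (0.757 to 1.18). In Uninjured 9 members could be compared, and 3 were higher and 4 lower in the *Pi16* and *Dpp4* gate, where 20.4% of all genes tested passed the rule of size. At 1 dpi the count was 3 higher and 2 lower of 6 (15.3% of all genes), at 3 dpi 3 higher and 2 lower of 7 (11.6%) and at 7 dpi 2 higher and 1 lower of 7 (12.5%). *Ptgs2* at 3 dpi was just under 2-fold (log2 ratio 0.99 in place of 1.19) when cells of both gates were kept. *Ptgs1*, *Ptgs2* and *Ptgis* were thus the higher ones up to 3 dpi. Within this pair of gates, the cyclooxygenases and the prostacyclin synthase were higher with *Pi16* and *Dpp4*, and the receptor *Ptger4* with *Smoc2* and *Col15a1*. Up to 3 dpi *Ptgis* was higher still in the gate with *Tnmd* and *Thbs4* described above.

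**Figure D4:**
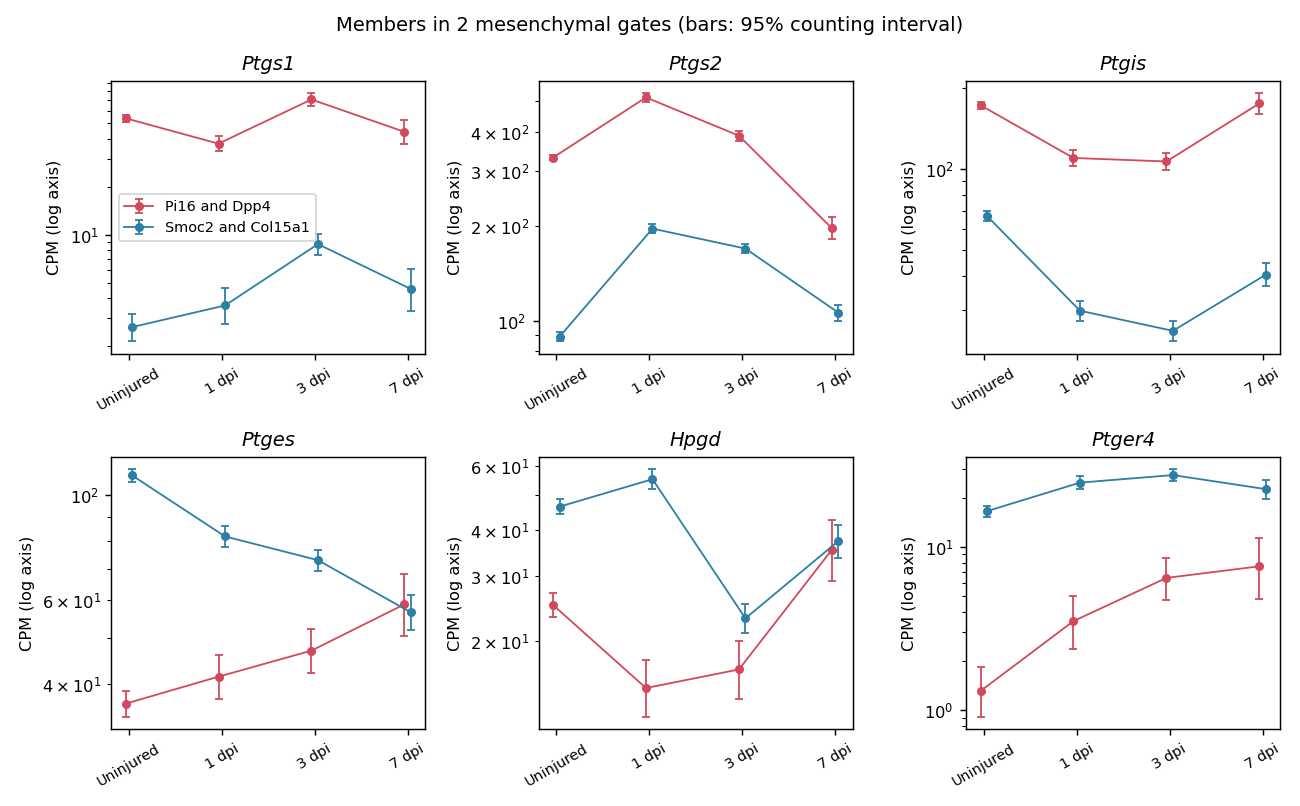
Level of *Ptgs1*, *Ptgs2*, *Ptgis*, *Ptges*, *Hpgd* and *Ptger4* in CPM (log axis) against library for mesenchymal cells with *Pi16* and *Dpp4* and for those with *Smoc2* and *Col15a1*; points are sums over the gated cells of 1 library and bars are 95% counting intervals. The *Pi16* and *Dpp4* points lie above for *Ptgs1*, *Ptgs2* and *Ptgis* and below for *Ptger4* in all 4 libraries, and the points of *Ptges* and *Hpgd* meet at 7 dpi.

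At 7 dpi the muscle held cartilage, and chondrocytes shared part of the profile of mesenchymal cells. They had 152 CPM of *Ptgs2* (147 to 157, 3246 UMIs), 69.4 of *Ptgis* (65.9 to 73.0, 1485 UMIs), 42.9 of *Hpgd* (40.2 to 45.8, 918 UMIs) and 19.1 of *Ptges* (17.3 to 21.1, 409 UMIs). Against mesenchymal cells of the same library, *Ptgs2* was at a ratio of 0.914 (0.879 to 0.952), *Ptgis* at 1.13 (1.06 to 1.20) and *Hpgd* at 1.57 (1.44 to 1.70), while *Ptges* was 2.16-fold lower (1.95 to 2.41), *Ptger4* 2.13-fold lower (1.80 to 2.54) and *Ptger2* 3.81-fold lower (1.38 to 14.6). These 3 of 9 members were past the rule of size, beside 11.7% of all genes tested. Of them, *Ptger2* rests on 4 UMIs in chondrocytes (0.187 CPM). Chondrocytes were divided by *Col10a1*, the collagen of hypertrophic cartilage, into 627 cells with at least 3 UMIs of it and 3405 cells with fewer. *Hpgd* was at 152 CPM in the former (139 to 166, 493 UMIs) and 23.4 CPM in the latter (21.2 to 25.7, 425 UMIs), 6.51-fold apart (5.71 to 7.43), and 10.7% against 1.99% of cells had an *Hpgd* UMI at 1000 UMIs per cell (26.6% against 7.34% without thinning). *Ptgis* was at 151 CPM (138 to 165) against 54.9 (51.5 to 58.4), 2.76-fold apart (2.47 to 3.07). For both genes the 3405 cells with fewer *Col10a1* UMIs were below the mesenchymal level of the same library. *Ptgs2* was 1.33-fold lower with *Col10a1* (1.20 to 1.49) and *Ptges* at a ratio of 0.946 (0.706 to 1.25). *Hpgd* and *Ptgis* were the 2 of 7 members past the rule of size here, beside 6.92% of all genes tested, so the gene that degrades prostaglandins and the prostacyclin synthase were both higher in the hypertrophic gate.

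**Figure D5:**
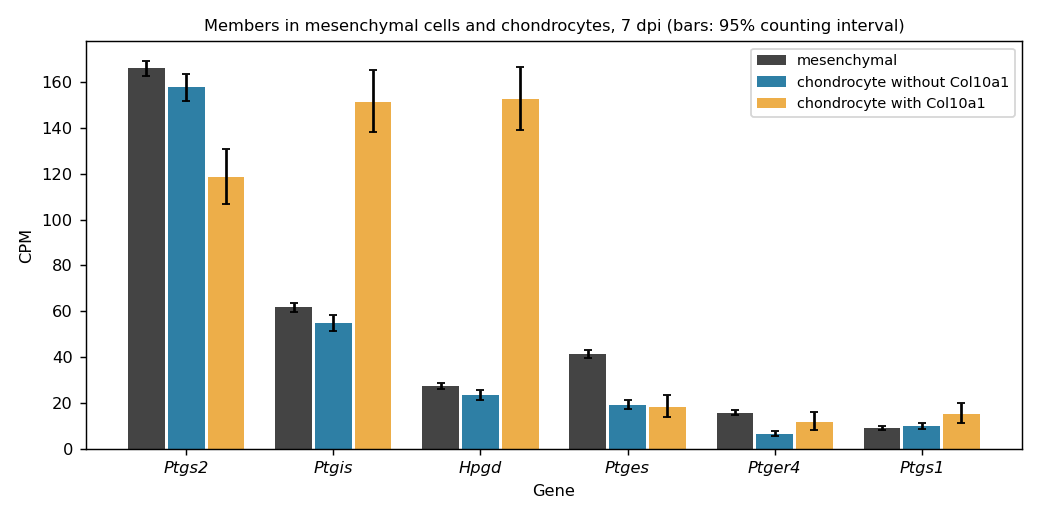
Level in CPM of *Ptgs2*, *Ptgis*, *Hpgd*, *Ptges*, *Ptger4* and *Ptgs1* at 7 dpi in mesenchymal cells, in chondrocytes without *Col10a1* (fewer than 3 UMIs) and in chondrocytes with *Col10a1*; bars are class sums and error bars are 95% counting intervals. Chondrocytes with *Col10a1* stand out for *Hpgd* (152 CPM against 23.4 without) and *Ptgis* (151 against 54.9).

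C1q macrophages were compared with the other monocytes and macrophages at the libraries with most cells. Of 6 members, 1 was higher at 1 dpi (*Hpgds*), beside 5.55% of all genes tested, and 2 were higher at 3 dpi (*Hpgds* and *Ptgs1*), beside 12.0%. *Ptger4* was lower in C1q macrophages by 1.14-fold at 1 dpi (1.03 to 1.25) and 1.51-fold at 3 dpi (1.28 to 1.78), and *Ptger2* was at ratios of 1.21 (0.875 to 1.68) and 1.74 (0.982 to 3.18). *Hpgd* was 1.87-fold lower in them at 1 dpi (1.21 to 2.95) and at a ratio of 1.03 at 3 dpi (0.673 to 1.59).

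A list of 20 further genes of prostanoid synthesis, transport and sensing was followed in the same way. In mesenchymal cells 18 could be compared, with 2 higher and 2 lower at 1 dpi over Uninjured, 3 higher and 1 lower at 3 dpi over 1 dpi, and 3 higher and 4 lower at 7 dpi over 3 dpi, where 15.5%, 13.5% and 19.8% of all genes tested passed the rule. Their median log2 ratio at the 3 steps was 0.24, -0.02 and -0.02, beside 0.17, -0.08 and -0.05 over all genes. *Slco2a1*, the transporter that takes prostaglandins up for degradation, was at 7.87, 22.2, 18.4 and 5.78 CPM in time order, 2.81-fold higher at 1 dpi than in Uninjured (2.53 to 3.13) and 3.19-fold lower at 7 dpi than at 3 dpi (2.82 to 3.62). *Prxl2b*, a prostaglandin F synthase, ran the other way at 18.7, 8.75, 8.35 and 17.2 CPM. *Ptgir*, the prostacyclin receptor, was at 16.2, 10.9, 15.4 and 3.91 CPM, and *Tbxa2r*, the thromboxane receptor, at 1.27, 0.318, 1.15 and 7.01 CPM, 6.09-fold higher at 7 dpi than at 3 dpi (4.66 to 8.08). In monocytes and macrophages 11 or 12 genes of the list could be compared and at most 1 was past the rule of size at any step, *Abcc4* (higher at 1 dpi) and *Cbr1* (higher at 7 dpi), against 23.9%, 12.7% and 12.8% of all genes. *Tbxas1*, thromboxane synthase, was at 71.8, 79.0, 53.5 and 42.6 CPM in that class and at no more than 0.781 CPM in mesenchymal cells. Of 8 leukotriene and lipoxygenase genes 6 could be compared in that class at 1 dpi over Uninjured, with none higher and 1 lower, against 23.9% of all genes. That gene, *Ltb4r1*, a leukotriene B4 receptor, was at 149, 40.2, 59.0 and 135 CPM in monocytes and macrophages, lower by 3.70-fold at 1 dpi than in Uninjured (3.23 to 4.24), the same direction as *Hpgd* at that step.

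Likeness of course across classes was described by the Pearson correlation of log2(CPM + 10) over 42 class sums of at least 50 cells, among 14388 genes, without a test, since class sums share libraries and depth. The genes closest to *Ptgs2* were *Tnfaip2* (r = 0.89), *Emilin2* (0.86) and *Basp1* (0.85), and those closest to *Ptger4* were *Nfkb1* (0.85), *Etv3* (0.84) and *St8sia4* (0.83). *Ptges* was closest to *Osr1* (0.95), *Pdgfra* (0.94, itself a marker of the mesenchymal gate) and *Clec3b* (0.94), and *Ptgis* to *Nipal2* (0.92), *P4ha2* (0.90) and *Prelp* (0.89). *Ptgs1* was closest to *Cldn15* (0.90), *Ica1* (0.89) and *Dach1* (0.86), *Hpgds* to *Tlr7* (0.87), *Tlr1* (0.87) and *Dnase2a* (0.85), and *Hpgd* to *Wnt11* (0.81), *Guca1a* (0.79) and *Tgfbi* (0.78). *Ptger2* was closest to *Lilrb4a* (0.88), *Osm* (0.87) and *Cxcl2* (0.84), and *Ptger3* to *Slc6a17* (0.98), *Optc* (0.97) and *Mrvi1* (0.97). The *Ptger3* values rest mainly on mural cells, at 28.6 CPM in Uninjured (13 UMIs) and 19.1 at 7 dpi (3 UMIs). In the other class sums of at least 50 cells *Ptger3* was at most 2.42 CPM. Smaller classes, such as mast cells, were not among these sums. Among the members themselves *Ptges* and *Ptgis* were most alike (0.73). *Ptgs2* had an r of 0.57 with *Ptger2*, 0.56 with *Hpgd*, 0.51 with *Ptges*, 0.42 with *Ptgs1* and 0.35 with *Ptgis*. Its r was 0.084 with *Ptger4*, 0.075 with *Hpgds* and -0.075 with *Ptger3*. *Ptgds* had too few UMIs to be included.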

How the data were processed

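Single cells of *Nse-Bmp4* tibial muscle were captured on the 10x platform, 1 library per time point. Per the labels and the submitters' processing notes, the authors aligned reads to mm10 with Cell Ranger 5.0.0 and used Seurat 3.1.1; the deposited matrices hold raw UMI counts per gene and barcode. The study thinned reads to even out the samples; if that step came before these counts, which is not given in the sources used here, the files' depth differs from the sequenced depth. Here barcodes outside 2 SD of log UMIs or genes, above 10% mitochondrial UMIs, or among the top 7.5% of Scrublet scores (scanpy 1.11.5) were removed. A cell joined the class with most of its 6 markers (at least 2); cells with markers of a second lineage were left out. Counts were summed per class and library, and scripts were tested on simulated data. Shares were taken after thinning to 1000 UMIs per cell. With 1 sample per group no test was possible. Members, lists and gates were chosen with earlier results of these data known, and the *Pi16*/*Smoc2* exclusive gates and the *Col10a1*, *Pax7*/*Myog*, *Ccr7* and *Mcpt8* gates were set after values were seen. Named genes are the members, pathway genes past the rule of size or with a stated role, and the 3 genes most correlated with each member. Python 3.11.15 was used with numpy 2.4.6, scipy 1.17.1 and pandas 2.3.3.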

Additional observations from a re-analysis of the deposited data

Results flagged for a closer look

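*Hpgd* differed in opposite directions in 2 classes between 1 and 3 dpi. Its log2 ratio of 3 dpi over 1 dpi was -1.31 in mesenchymal cells and 1.23 in monocytes and macrophages. The mesenchymal ratio was under 2-fold when each cell had equal weight (-0.79) or was thinned to 1000 UMIs (-0.84). The difference between the classes was not tested, since each time point is 1 library.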

How the results depend on the processing

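No paired analysis was possible because each time point is 1 library. Across 359 recalculations of 45 log2 ratios with other settings, 27 differed in sign and 18 crossed 2-fold. A further 48 recalculations added after seeing the data, for 24 ratios between the stromal gates, gave 1 and 2. Of these 24 ratios, 17 left their counting interval when cells of both gates were kept, and 9 did as a mean over cells. Between 1 dpi and Uninjured in mesenchymal cells, *Ptgs2* (0.69) was 0.59 with every barcode and 0.48 with median-of-ratios scaling, and *Ptgis* (-0.73) was -0.97 with linear SD limits, -0.81 with every barcode, -0.94 with median-of-ratios scaling, -0.87 as a mean over cells and -0.84 thinned. *Ptger4* in monocytes and macrophages (0.75) was 0.47 as a mean over cells and 0.45 thinned. *Ptger2* in mesenchymal cells, 3 over 1 dpi (1.01), turned to -0.10 when thinned. *Ptgs2* between stromal gates at 3 dpi (1.19) was 0.99 with cells of both gates kept. *Ptgs2* in monocytes and macrophages (1.52) ranged from 1.36 to 1.66, and *Hpgd* (-3.19) from -3.46 to -3.13. With no minimum of UMIs, 6694, 5839 and 7220 genes were past 2-fold at the 3 steps in mesenchymal cells (2370, 2052 and 3143 with it), and 6948, 5360 and 5281 in monocytes and macrophages (2614, 1434 and 1265). The cause of these differences was not tested. Intervals cover counting error only, and classes under 50 cells limit what *Ptger3* and *Ptgds* can show.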
